A study of Mus musculus with 12 samples.

Results

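Regulatory T cells are the CD4+ T cells that restrain immune responses, and Foxp3 encodes the transcription factor that defines them. The 10 genes described here are Foxp3, the Ikaros family factors Ikzf2 and Ikzf4, the ectonucleotidases Entpd1 and Nt5e, and Lrrc32, Itgae, Tgfb1, Tgfb3 and Ebi3. Lrrc32, Tgfb1, Tgfb3 and Ebi3 serve the TGF-β and interleukin 35 arms of suppression, and Itgae encodes an integrin chain induced by TGF-β. The 10 genes were chosen by symbol from the 32699 gene symbols of the deposited table. All 10 were in it, and all 10 passed the low-count filter that left 13196 genes for testing. RNA had been sequenced from mouse CD4+ T cells that were naive at the start and were stimulated in vitro through CD3 and CD28, by antibody. The cells lacked Keap1 (Keap1 knockout, KKO) or were wild type (WT), and RNA was taken 24 h or 48 h later. Each group, KKO at 24 h, WT at 24 h, KKO at 48 h and WT at 48 h, had 3 libraries. The labels give no strain, age or sex, nor how and in which cells Keap1 was deleted, nor whether a group's libraries stem from different mice or cultures. The p-values therefore measure the spread between these libraries, which may be technical.

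Regulatory T cells must keep Foxp3 switched on to stay suppressive, while conventional mouse T cells express it little. CD39, the product of Entpd1, strips phosphates from extracellular ATP and ADP, and CD73, the product of Nt5e, turns the resulting AMP into adenosine, which dampens T cells. TGF-β is made in a latent form that GARP, the product of Lrrc32, holds at the cell surface until an integrin frees it. Activated conventional T cells can also express several of these genes, so none but Foxp3 is a marker of regulatory T cells alone, and in bulk RNA fewer cells of a type and less RNA per cell cannot be told apart.

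The 12 libraries held between 17786532 and 32607684 expected counts each. Levels are given as CPM, counts per mega (M) of the TMM-scaled library total. Keap1, the targeted gene, stood at 15.7 to 17.5 CPM in KKO and 106 to 109 CPM in WT at 24 h, and at 20.2 to 22.5 CPM in KKO and 122 to 132 CPM in WT at 48 h, lower in every KKO library than in any WT library. The cells carried their label: 9 CD4 T cell genes in the table (Cd4, Cd3e, Thy1 and others) summed to 2735 to 3105 CPM in every library. At 24 h the sum was lower in KKO without overlap, at 2850 to 2948 CPM against 2989 to 3105 CPM in WT. Of the 9 genes, 1 was called higher and 0 lower in KKO at 24 h. At 48 h the sums overlapped and 0 of the 9 were called. The libraries differed in sex-linked RNA. KKO replicate 2 at both times and WT replicates 1 and 2 at both times held Xist, made by inactive X chromosomes, and next to no Y-linked transcripts. Y-linked transcripts with little or no Xist were found in WT replicate 3 at both times, in replicate 3 of KKO at 24 h and in replicate 1 of KKO at 48 h. The remaining KKO libraries, replicate 1 at 24 h and replicate 3 at 48 h, had both. Y-linked RNA was thus in 2 of 3 KKO libraries and in 1 of 3 WT libraries at each time. Values within a sex reading are therefore given below, except for Tgfb1 and for Entpd1 and Tgfb3 at 24 h. Each compares 1 KKO library with 2 WT libraries for Xist only, and with 1 WT library for Y-linked RNA only. These ratios carry no estimate of spread.

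The sum of B cell markers was higher in KKO at both times. So were the sums of γδ T cell, CD8 T cell and dendritic cell markers, without overlap with WT, although calls differed by list. The 10 B cell genes summed to 50.4 to 70.0 CPM in KKO against 25.2 to 31.8 CPM in WT at 24 h, and to 53.1 to 79.7 CPM against 26.1 to 36.4 CPM at 48 h, and none of them was at 0 in any group. Fcer2a, the low-affinity IgE receptor gene, alone stood at 27.6 to 37.1 CPM in KKO against 14.6 to 16.5 CPM in WT at 24 h. At 48 h its groups overlapped, at 17.0 to 35.8 CPM in KKO against 10.7 to 17.5 CPM in WT. Of the 9 B cell genes tested, 4 were called higher in KKO at 24 h and 8 at 48 h, against 1.89% and 12.4% of all tested genes. The γδ T cell genes summed to 5.58 to 8.26 CPM in KKO against 3.89 to 4.10 CPM in WT at 24 h, and to 5.77 to 10.7 CPM against 3.01 to 4.32 CPM at 48 h, with 1 of 3 called higher at 24 h and 2 at 48 h. Cd8a and Cd8b1 together gave 9.36 to 10.8 CPM in KKO against 7.04 to 8.11 CPM in WT at 24 h, and 12.7 to 13.4 CPM against 8.32 to 10.6 CPM at 48 h, and both were called higher at 48 h but not at 24 h. The 8 dendritic cell genes summed to 5.42 to 5.83 CPM in KKO against 2.22 to 3.75 CPM in WT at 24 h, and to 27.3 to 29.5 CPM against 12.7 to 15.7 CPM at 48 h. Of the 3 dendritic cell genes tested, 1 was called higher in KKO at 24 h and 2 at 48 h. Batf3, which activated T cells also express, made up most of the 48 h sum. Flt3 stood at 1.41 to 1.96 CPM in KKO against 0.218 to 0.664 CPM in WT at 48 h. Zbtb46 averaged 3.21 CPM in KKO and 4.30 CPM in WT there. Clec9a and Cd209a were at 0 in all 4 groups and Siglech at 0 at 48 h. The 7 macrophage genes summed to at most 0.986 CPM in any library, and the 4 natural killer cell genes to at most 2.64 CPM, with KKO and WT overlapping at both times. B cells, dendritic cells and CD8 T cells can express Ebi3, Entpd1, Nt5e or Itgae, and the part of such cells in the results below was not tested.

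Promoter windows, 250 bases before to 50 after a transcription start, were at hand for 5 of the genes (RefSeq, build GRCm38.p6). Those of Foxp3, which fell with time, and of Entpd1 and Ebi3, which were higher in KKO, are shown to let the sites for Nrf2, AP-1, STAT and SMAD factors be looked up. Nrf2 is the factor that Keap1 holds down. Capitals mark matches, on either strand, to the antioxidant response element bound by Nrf2 (TGACNNNGC), the AP-1 site (TGANTCA), the STAT site (TTCNNNGAA) and the SMAD box (CAGAC).
Foxp3, first start, chrX:7579426-7579725 (+ strand): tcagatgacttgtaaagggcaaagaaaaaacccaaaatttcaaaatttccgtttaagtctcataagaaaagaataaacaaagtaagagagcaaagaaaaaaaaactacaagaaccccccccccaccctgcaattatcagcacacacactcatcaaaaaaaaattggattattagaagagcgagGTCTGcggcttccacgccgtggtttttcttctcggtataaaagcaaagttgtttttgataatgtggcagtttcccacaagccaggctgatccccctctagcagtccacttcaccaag
Foxp3, second start, chrX:7580233-7580532 (+ strand): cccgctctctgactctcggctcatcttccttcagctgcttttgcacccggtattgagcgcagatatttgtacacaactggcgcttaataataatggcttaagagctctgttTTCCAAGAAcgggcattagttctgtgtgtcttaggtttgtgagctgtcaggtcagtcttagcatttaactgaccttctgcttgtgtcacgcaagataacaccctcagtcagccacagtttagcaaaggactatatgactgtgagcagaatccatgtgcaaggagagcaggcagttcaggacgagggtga
Entpd1, first start, chr19:40612116-40612415 (+ strand): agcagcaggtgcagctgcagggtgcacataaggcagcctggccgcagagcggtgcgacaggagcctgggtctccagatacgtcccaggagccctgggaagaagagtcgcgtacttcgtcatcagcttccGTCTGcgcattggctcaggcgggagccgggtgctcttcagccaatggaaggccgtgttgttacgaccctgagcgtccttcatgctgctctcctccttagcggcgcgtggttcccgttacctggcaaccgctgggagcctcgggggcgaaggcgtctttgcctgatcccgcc
Entpd1, second start, chr19:40659520-40659819 (+ strand): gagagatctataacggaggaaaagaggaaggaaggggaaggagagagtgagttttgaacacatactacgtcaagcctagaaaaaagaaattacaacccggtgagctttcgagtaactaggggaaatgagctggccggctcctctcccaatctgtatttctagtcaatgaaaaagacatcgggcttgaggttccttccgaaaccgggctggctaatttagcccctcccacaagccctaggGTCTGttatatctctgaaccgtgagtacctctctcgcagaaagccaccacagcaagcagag
Ebi3, chr17:55952373-55952672 (+ strand): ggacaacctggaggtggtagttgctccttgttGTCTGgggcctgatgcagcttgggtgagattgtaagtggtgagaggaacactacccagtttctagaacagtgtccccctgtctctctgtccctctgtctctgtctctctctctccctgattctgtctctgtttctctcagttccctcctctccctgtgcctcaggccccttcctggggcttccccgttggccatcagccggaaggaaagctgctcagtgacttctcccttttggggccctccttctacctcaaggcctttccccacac
None of these 5 windows, nor the single windows of Nt5e and Tgfb1, held TGACNNNGC or TGANTCA, which 12.4% and 7.81% of all 32851 promoter windows held. The second Foxp3 window held the one STAT match, a pattern found in 8.30% of windows. A SMAD box, present in 49.6% of windows, stood in the first Foxp3, both Entpd1, the Ebi3 and the Nt5e windows. A match is only a run of letters, and its absence here says only that these letters are not in these bases.

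**Figure D1:**
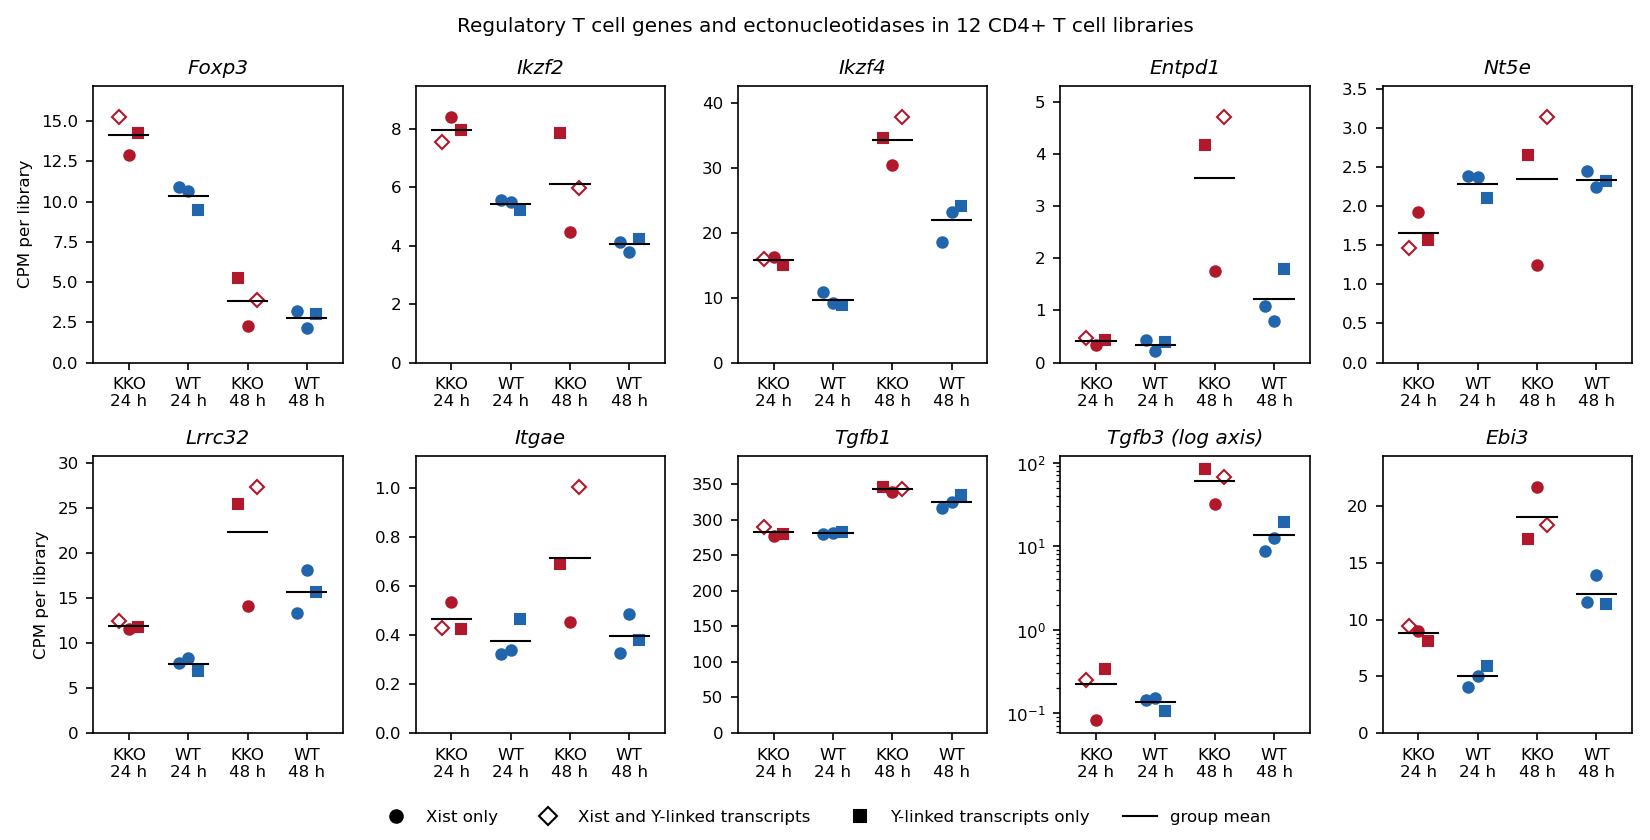
CPM of each of the 10 genes (vertical axis, linear from 0, logarithmic for Tgfb3) in the 3 libraries of KKO and WT at 24 h and at 48 h. Points are libraries, shaped by the sex-linked transcripts they held, and lines are group means; Foxp3 is lower at 48 h in both genotypes, and Tgfb3 is at 8.81 CPM or more at 48 h against at most 0.341 CPM at 24 h.

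Foxp3 fell between 24 h and 48 h in both genotypes, and the KKO level was not called different from WT at either time. The gene lies on chromosome X at 7573644 to 7595245 (GENCODE, GRCm38, the mm10 build). In KKO at 24 h it stood at 15.3, 12.9 and 14.3 CPM in replicates 1, 2 and 3, against 10.9, 10.6 and 9.50 CPM in WT at 24 h. At 48 h the values were 5.26, 2.26 and 3.91 CPM in KKO, against 3.21, 2.17 and 2.99 CPM in WT. Every KKO library was above every WT library at 24 h, whereas the groups overlapped at 48 h. The log2 fold change between genotypes was 0.45 ± 0.19 (SE) at 24 h, with an adjusted p of 0.346 by edgeR's quasi-likelihood test, and 0.47 ± 0.24 (SE, adjusted p = 0.162) at 48 h. The 95% intervals, 0.05 to 0.85 and -0.04 to 0.98, do not show that the levels were alike. Fitted on the 24 h libraries alone, the 24 h difference was called (0.46, adjusted p = 0.0174), and without KKO replicate 2 at 48 h the 48 h difference was 0.73 (adjusted p = 0.00467). Within libraries that held Xist only, the KKO level was 1.20 times WT at 24 h and 0.842 times WT at 48 h; within those with Y-linked RNA only it was 1.50 and 1.76 times WT.

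Across time the fall of Foxp3 was -1.88 ± 0.21 (log2, SE, adjusted p = 2.1e-06) in KKO and -1.90 ± 0.22 (SE, adjusted p = 4.39e-06) in WT, a 3.68-fold and a 3.73-fold lower level at 48 h. In KKO the mean was 3.81 ± 1.50 CPM at 48 h against 14.1 ± 1.19 CPM at 24 h, and in WT 2.79 ± 0.55 CPM against 10.3 ± 0.74 CPM (SD, n = 3). Among 13196 tested genes, Foxp3 had the 134th lowest fold change in KKO and the 67th lowest in WT. The Foxp3 locus overlaps Ppp1r3f, Ccdc22 and the RNA gene Flicr, and the sources used here do not say whether reads were counted by strand, so reads of these genes may be shared. The 3 tested genes whose centred log2 CPM ran closest to that of Foxp3 over the 12 libraries were Fosl1, an AP-1 subunit, Angptl2 and Pvrl1, the nectin 1 gene. Their root mean square differences were 0.35, 0.35 and 0.36 log2 units, against a median of 1.01 over 10182 genes.

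The Ikaros family factors Helios (Ikzf2) and Eos (Ikzf4) act in regulatory T cells, Eos as a corepressor partner of FOXP3, and both were higher in KKO at 48 h. Ikzf4, on chromosome 10 at 128630843 to 128645991, stood at 15.9, 16.3 and 15.1 CPM in KKO at 24 h, against 10.9, 9.21 and 8.79 CPM in WT at 24 h. The 48 h values were 34.5, 30.4 and 37.8 CPM in KKO, against 18.5, 23.1 and 24.2 CPM in WT. No KKO library overlapped a WT library at either time. On the log2 scale KKO differed from WT by 0.71 ± 0.12 (SE; adjusted p = 0.00356) at 24 h and 0.64 ± 0.11 (SE, adjusted p = 0.00119) at 48 h, about 1.64-fold and 1.56-fold higher in KKO. Within sex readings, with 1 KKO library in each, KKO stood at 1.62 and 1.46 times WT with Xist only, at 24 h and 48 h in turn. With Y-linked RNA only it stood at 1.72 and 1.43 times WT. With time Ikzf4 rose by 1.12 ± 0.11 (log2, SE, adjusted p = 5.16e-07) in KKO and by 1.19 ± 0.11 (SE, adjusted p = 6.05e-07) in WT, opposite to Foxp3.

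Ikzf2, on chromosome 1 at 69531214 to 69687245, stood at 7.55, 8.42 and 7.96 CPM in KKO at 24 h, against 5.57, 5.51 and 5.21 CPM in WT. Its 48 h values were 7.87, 4.47 and 5.96 CPM in KKO, against 4.13, 3.80 and 4.22 CPM in WT. The KKO libraries lay above the WT libraries at both times, with KKO replicate 2 at 48 h close to WT. With Xist only, KKO stood at 1.52 times WT at 24 h and 1.13 times at 48 h. With Y-linked RNA only it stood at 1.53 and 1.86 times WT. The log2 fold change was 0.55 ± 0.16 (SE, adjusted p = 0.0958, not called) at 24 h and 0.60 ± 0.17 (SE, adjusted p = 0.0214) at 48 h. The 48 h call was lost without WT replicate 1 or 2 or KKO replicate 1 or 3 at 48 h, with log2 fold changes of 0.61, 0.55, 0.37 and 0.62 and adjusted p of 0.0578, 0.0830, 0.144 and 0.0542. It was also lost without both libraries that held RNA of both sexes (0.62, adjusted p = 0.0732) and in a fit of the 48 h libraries alone (0.59, adjusted p = 0.0979). At 24 h, DESeq2 (0.56, adjusted p = 0.0366) and the fit of the 24 h libraries alone (0.56, adjusted p = 0.0158) called it, as did edgeR without KKO replicate 1 or 2 at 48 h (0.55 in both, adjusted p = 0.0332 and 0.0164). With time Ikzf2 fell by 0.38 ± 0.16 (log2, SE, adjusted p = 0.0470) in KKO and by 0.42 ± 0.17 (SE, adjusted p = 0.0396) in WT. In KKO the libraries of the 2 times overlapped, with replicate 1 at 7.87 CPM at 48 h and 7.55 CPM at 24 h. With replicate numbers as a block the WT value had an adjusted p of 0.0620, and in KKO one of 0.0582. In KKO, libraries numbered 1 and 3 did not keep the same sex reading between times, so there the block joined libraries of different readings. Leaving out some single libraries also ended both calls, with adjusted p up to 0.206 in KKO and 0.119 in WT. Upper-quartile scaling and a filter of 1 CPM in 6 libraries ended both as well, and a fit of the KKO libraries alone ended the KKO call. Of 22 alternatives, 16 lost the call in KKO and 12 lost it in WT.

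The ectonucleotidases went separate ways. Entpd1, on chromosome 19 at 40612366 to 40741602, was barely detected at 24 h, with 13, 8 and 10 counts in KKO and 12, 7 and 11 counts in WT. At 48 h it stood at 4.18, 1.75 and 4.72 CPM in KKO (85, 31 and 99 counts), against 1.09, 0.796 and 1.80 CPM in WT (20, 18 and 38 counts). KKO replicate 2 lay below WT replicate 3, and the other KKO libraries stood well above all WT libraries. The log2 fold change at 48 h was 1.54 ± 0.37 (SE, adjusted p = 0.00919), a 2.91-fold higher level in KKO. At 24 h it was 0.25 ± 0.52 (SE, adjusted p = 0.968), with a 95% interval of -0.85 to 1.36. The 48 h call was lost without WT replicate 2 (1.29, adjusted p = 0.0534), without KKO replicate 3 (1.28, adjusted p = 0.0558) and without both libraries of mixed sex-linked RNA (1.28, adjusted p = 0.0730). In both genotypes the library or libraries with Xist only were lowest at 48 h. Within that reading KKO stood at 1.86 times WT, and within libraries with Y-linked RNA only at 2.32 times WT.

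The rise of Entpd1 with time was 3.11 ± 0.42 (log2, SE, adjusted p = 1.03e-05) in KKO and 1.83 ± 0.45 (SE, adjusted p = 0.00279) in WT. It passed the low-count filter mainly through the 48 h libraries, so a rise was largely implied once it was tested. The difference between the genotypes' changes, 1.28 ± 0.64 (log2, SE), had an adjusted p of 0.252 and was not called. Without KKO replicate 2 at 48 h it was 1.60 (adjusted p = 0.0403). Most like Entpd1 over the 12 libraries were Adamtsl4, Gngt2 and Maged2, with root mean square differences of 0.27, 0.28 and 0.30 log2 units against a median of 1.30 over 10183 genes.

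Nt5e, on chromosome 9 at 88327197 to 88372092, was the one gene of the set with all KKO libraries below all WT libraries at 24 h. It stood at 1.47, 1.93 and 1.57 CPM in KKO, against 2.39, 2.37 and 2.11 CPM in WT (41, 47 and 37 counts against 67, 77 and 59). The log2 fold change of -0.47 ± 0.26 (SE) had an adjusted p of 0.586. At 48 h KKO spread from 1.24 to 3.15 CPM around the WT values of 2.25 to 2.45 CPM, a log2 difference of 0.02 ± 0.27 (SE; adjusted p = 0.965). The 95% interval, -0.55 to 0.59, does not show that the levels were alike. The sign of the 48 h difference changed with the libraries used, from -0.24 without KKO replicate 3 at 48 h to 0.31 without KKO replicate 2 at 48 h. With Xist only, KKO stood at 0.810 times WT at 24 h and 0.529 times at 48 h. With Y-linked RNA only it stood at 0.747 and 1.14 times WT. Between times Nt5e was called in neither genotype (0.52 ± 0.27, adjusted p = 0.101 in KKO and 0.03 ± 0.26, adjusted p = 0.930 in WT; log2, SE), but without KKO replicate 2 at 48 h the rise in KKO was 0.81 (adjusted p = 0.00282).

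Among other genes of extracellular nucleotides and adenosine, 23 of 28 were tested. At 24 h edgeR called 1 higher in KKO than in WT: Adora2a, the main adenosine receptor of T cells (log2 fold change 0.56 ± 0.07, SE, adjusted p = 0.000497). It averaged 38.2 CPM in KKO and 25.9 CPM in WT. At 48 h Adora2a was not called (-0.11, adjusted p = 0.253; KKO 45.7 CPM, WT 49.4 CPM), and its 2 effects differed from each other (-0.68, adjusted p = 0.00301). Over all tested genes 1.89% were called higher and 0.432% lower at 24 h, and 12.4% and 11.9% at 48 h. At 48 h 5 of the 23 were higher and 3 lower in KKO, with a median log2 fold change of 0.01, against 0.00 over all tested genes. The largest were Cd38, an NAD-consuming ectoenzyme (1.38), Enpp1, which makes AMP from extracellular ATP (1.35), Entpd4, an intracellular relative of Entpd1 (0.90), and Adora2b, a low-affinity adenosine receptor (0.58). Cd38 reached the filter's level in 3 KKO libraries at each time, and in 0 and 2 WT libraries at 24 h and 48 h. A higher KKO level of Cd38 was thus partly implied once it was tested. Ada, which breaks adenosine down, was called at neither time (0.10 at 24 h and 0.14 at 48 h).

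**Figure D2:**
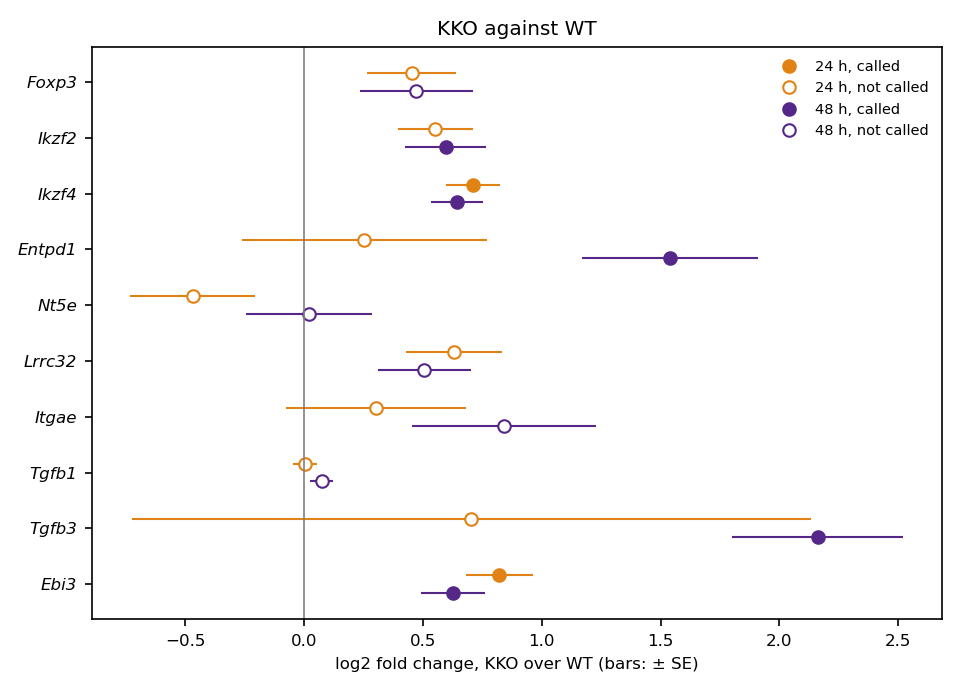
Log2 fold change of KKO over WT (horizontal axis) for each of the 10 genes at 24 h and at 48 h, with bars of 1 SE from the fit over all 12 libraries. Filled points passed an adjusted p under 0.05: Ikzf4 and Ebi3 at 24 h, and Ikzf2, Ikzf4, Entpd1, Tgfb3 and Ebi3 at 48 h.

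Of the TGF-β genes, Tgfb3 changed by far more than Tgfb1. Tgfb3, on chromosome 12 at 86056745 to 86079041, had 7, 2 and 8 counts in KKO and 4, 5 and 3 counts in WT at 24 h. At 48 h it stood at 83.5, 32.0 and 67.2 CPM in KKO (1699, 565 and 1408 counts), against 8.81, 12.6 and 19.3 CPM in WT (162, 286 and 407 counts). The lowest KKO library was above the highest WT library at 48 h. The log2 fold change at 48 h was 2.16 ± 0.36 (SE, adjusted p = 0.00331), a 4.47-fold higher level in KKO and the 76th highest among the 13196 tested genes. At 24 h it was 0.70 ± 1.43 (SE, adjusted p = 0.968), with a 95% interval of -2.51 to 3.92, and no difference was detectable at 17 counts in all of KKO and 12 in all of WT. At 48 h KKO stood at 2.98 times WT among libraries with Xist only and at 4.33 times WT among those with Y-linked RNA only, and within each genotype the Xist-only libraries were lowest. With the share of Y-linked RNA as a covariate, a fit added after the data were seen, the log2 fold change was 1.77 and was still called.

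Between times Tgfb3 rose by 8.05 ± 0.60 (log2, SE, adjusted p = 1.41e-06) in KKO and by 6.60 ± 0.68 (SE, adjusted p = 2.1e-05) in WT, the 14th and 15th highest rises of all tested genes. It passed the low-count filter only through the 48 h libraries, so a rise was implied once it was tested, and the size rests on few 24 h counts. The difference between those rises, 1.46 ± 1.61 (log2, SE), had an adjusted p of 0.635. Tgfb3 overlaps Ttll5 on the opposite strand.

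Tgfb1, the main TGF-β gene of lymphocytes, lies on chromosome 7 at 25687002 to 25705077 and varied little. It stood at 290, 277 and 280 CPM in KKO against 280, 282 and 282 CPM in WT at 24 h. At 48 h it stood at 345, 339 and 342 CPM in KKO against 317, 324 and 334 CPM in WT. The log2 fold changes between genotypes were 0.00 ± 0.05 (SE, adjusted p = 0.999) at 24 h and 0.07 ± 0.05 (SE, adjusted p = 0.288) at 48 h. Their 95% intervals, -0.10 to 0.11 and -0.03 to 0.18, bound any difference to a small one, although the libraries did not overlap at 48 h. It rose with time by 0.28 ± 0.05 (log2, SE, adjusted p = 0.000143) in KKO and by 0.21 ± 0.05 (SE, adjusted p = 0.00195) in WT.

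Lrrc32, on chromosome 7 at 98489283 to 98502181, stood at 12.4, 11.5 and 11.7 CPM in KKO against 7.75, 8.38 and 6.93 CPM in WT at 24 h. All KKO libraries were above all WT libraries there. At 48 h the values were 25.4, 14.1 and 27.3 CPM in KKO against 13.3, 18.2 and 15.7 CPM in WT, and KKO replicate 2 fell inside the WT range. On the log2 scale KKO differed from WT by 0.63 ± 0.20 (SE; adjusted p = 0.179) at 24 h and 0.51 ± 0.19 (SE, adjusted p = 0.0770) at 48 h, and neither was called. DESeq2 called both (at 24 h 0.63 with an adjusted p of 0.0404, at 48 h 0.50 with one of 0.0429), as did edgeR without KKO replicate 2 at 48 h (0.63 with 0.00246 and 0.74 with 9e-05). The fit of the 24 h libraries alone also called the 24 h difference (0.64, adjusted p = 0.00423). Lrrc32 rose with time by 0.91 ± 0.20 (log2, SE, adjusted p = 0.00119) in KKO and by 1.03 ± 0.20 (SE, adjusted p = 0.000729) in WT. Within Xist-only libraries KKO stood at 1.43 times WT at 24 h and 0.898 times at 48 h, and within Y-linked-only libraries at 1.70 and 1.62 times.

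Itgae encodes the αE chain of the integrin that binds E-cadherin and is induced by TGF-β. The gene, on chromosome 11 at 73090583 to 73147446, was near the limit of the filter and overlaps Haspin on the opposite strand. It had 12, 13 and 10 counts in KKO against 9, 11 and 13 counts in WT at 24 h, and 14, 8 and 21 counts in KKO against 6, 11 and 8 counts in WT at 48 h. The groups overlapped at both times. With Xist only, KKO stood at 1.62 times WT at 24 h and 1.11 times at 48 h. With Y-linked RNA only it stood at 0.917 and 1.81 times WT. On the log2 scale KKO differed from WT by 0.30 ± 0.38 (SE; adjusted p = 0.923) and 0.84 ± 0.39 (SE, adjusted p = 0.124), with a 95% interval of 0.02 to 1.67 at 48 h. Between times it was not called in KKO (0.64 ± 0.37, adjusted p = 0.137; log2, SE) or in WT (0.10 ± 0.40, adjusted p = 0.845). Only KKO at 48 h had all 3 libraries over the level of the filter. Itgb7, its partner chain, averaged 72.1 CPM in KKO and 66.8 CPM in WT at 24 h (log2 fold change 0.11, adjusted p = 0.884). The 48 h averages were 148 CPM in KKO and 113 CPM in WT (0.38, adjusted p = 0.0274).

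Of 24 other genes that release or transmit TGF-β, 21 were tested. At 24 h 3 were called higher in KKO than in WT. They were Itgb8, the integrin chain that frees latent TGF-β (1.46, with 1.16 CPM in KKO against 0.426 CPM in WT), Smad3, which carries the TGF-β signal (0.74), and the signal's feedback gene Pmepa1 (0.36). Over all tested genes 1.89% were called higher and 0.432% lower at 24 h, and 12.4% and 11.9% at 48 h. At 48 h 8 of the 21 were higher and 3 lower in KKO, with a median log2 fold change of 0.23. The largest were Ltbp3, which binds latent TGF-β (1.87; 5.79 CPM in KKO against 1.58 CPM in WT), Thbs1, a TGF-β activator (-1.27; 0.364 CPM in KKO against 0.869 CPM in WT), Smad3 (0.84) and Furin, which cleaves the TGF-β precursor (0.72; 521 CPM in KKO against 317 CPM in WT). Thbs1 rested on few counts at 48 h, with 7, 9 and 5 in KKO against 15, 18 and 21 in WT. It reached the filter's level in 1 KKO library and 3 WT libraries there. Itgav, the partner of Itgb8, was called at neither time (0.20 at 24 h and 0.08 at 48 h).

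Ebi3 encodes a chain that pairs with the Il12a product to form interleukin 35 and with the Il27 product to form interleukin 27. The gene, on chromosome 17 at 55952640 to 55957022, was higher in KKO at both times. It stood at 9.41, 9.03 and 8.09 CPM in KKO against 4.04, 5.05 and 5.93 CPM in WT at 24 h, and at 17.1, 21.7 and 18.3 CPM in KKO against 11.6, 13.9 and 11.3 CPM in WT at 48 h. The groups did not overlap at either time. On the log2 scale KKO differed from WT by 0.82 ± 0.14 (SE; adjusted p = 0.00571) and 0.63 ± 0.13 (SE, adjusted p = 0.00446), 1.77-fold and 1.54-fold higher in KKO. The 24 h call was lost without both libraries that held RNA of both sexes (0.77, adjusted p = 0.0645). KKO stood at 1.99 and 1.70 times WT within Xist-only libraries and at 1.36 and 1.50 times WT within Y-linked-only libraries, at 24 h and 48 h in turn. Ebi3 rose with time by 1.10 ± 0.13 (log2, SE, adjusted p = 3.96e-06) in KKO and by 1.30 ± 0.14 (SE, adjusted p = 2.04e-06) in WT. An antisense gene, Gm16712, overlaps it.

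The partners of Ebi3 were scarce. Il12a averaged 0.880 ± 0.0991 CPM in KKO against 0.335 ± 0.132 CPM in WT at 24 h, and 0.824 ± 0.758 CPM in KKO against 0.861 ± 0.670 CPM in WT at 48 h (SD, n = 3 each). It was called at neither time by edgeR's quasi-likelihood test (at 24 h a log2 fold change of 1.40 with an adjusted p of 0.487, at 48 h -0.08 with one of 0.942). Il27 did not pass the filter, at no more than 0.367 CPM in any group mean. Of 12 genes of interleukin 12 family partners and receptors 10 were tested. At 24 h Il12rb2, an interleukin 12 receptor chain (0.80), was called higher in KKO than in WT, and Il6st, the shared receptor chain gp130 (-0.45), lower. Over all tested genes 1.89% were called higher and 0.432% lower at 24 h, and 12.4% and 11.9% at 48 h. At 48 h 2 of the 10 were higher and 3 lower in KKO, among them Stat4 (-0.71) and Stat3 (0.28), which carry signals of these cytokines, and Il12rb2 (0.49).

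**Figure D3:**
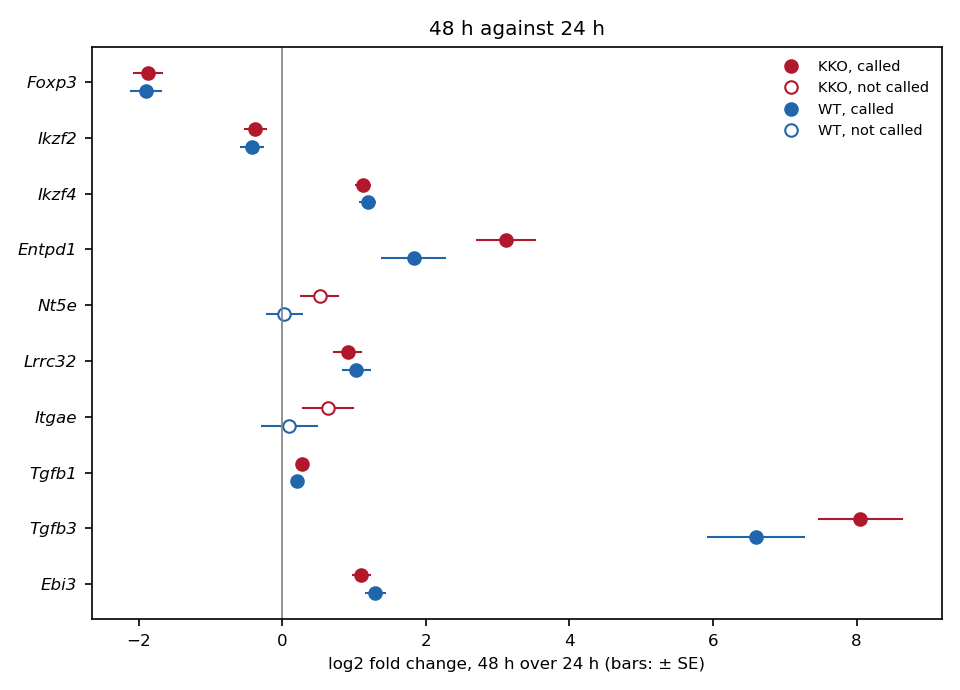
Log2 fold change of 48 h over 24 h (horizontal axis) for each of the 10 genes in KKO and in WT, with bars of 1 SE. Foxp3 and Ikzf2 lie below 0 in both genotypes, Tgfb3 lies at 8.05 in KKO and 6.60 in WT, and open points (Nt5e and Itgae) were not called.

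Counted over the set, 2 of the 10 genes were higher and 0 lower in KKO at 24 h, where edgeR called 2.33% of all tested genes, 1.89% as higher and 0.432% as lower. At 48 h 5 were higher and 0 lower, where 24.3% of all tested genes were called, 12.4% higher and 11.9% lower. At an unadjusted p under 0.05 no member was lower at either time, and neither DESeq2 nor limma-voom called one lower. Libraries did not overlap for 5 higher and 1 lower member at 24 h, against 9.93% and 9.46% of tested genes and 19.4% in either direction. At 48 h they did not for 5 higher members, against 17.1% of tested genes higher, 16.2% lower and 33.2% in either direction. The median log2 fold change of the 10 was 0.50 at 24 h and 0.61 at 48 h, against 0.00 over all tested genes at both. The genes were chosen with earlier results of these data known, so these counts describe the set and are no test of it. Both counts moved with the libraries used, from 1 at 24 h and 3 at 48 h without both libraries of mixed sex-linked RNA to 4 and 7 without KKO replicate 2 at 48 h, and to 5 at 24 h in the fit of the 24 h libraries alone. The difference between the genotype effects at 48 h and 24 h was called by edgeR for 0 of the 10, against 4.18% of tested genes, 1.46% as higher and 2.72% as lower. None had an unadjusted p under 0.05, and DESeq2 and limma-voom called 0. With time 6 of 10 rose and 2 fell in each genotype, against 67.8% of tested genes called in KKO (34.4% higher, 33.4% lower) and 60.8% in WT (31.0% higher, 29.7% lower). Entpd1 and Tgfb3 are among those that rose and owe their place in the test mainly to the 48 h libraries. Ikzf2 is among those that fell, and its call was lost in 16 of 22 alternatives in KKO and 12 of 22 in WT.

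KKO replicate 2 at 48 h was the lowest of its group for 9 of the 10 genes and the highest for Ebi3. Over all tested genes it was the lowest for 43.5% and the highest for 37.9%. That library held Xist only and correlated with replicates 1 and 3 at Spearman's rho of 0.989 and 0.992 across genes, against 0.997 between those.

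Per kilobase of annotated exon, Tgfb1 had the highest level of the 10 in every group, at 67.9 ± 0.64 CPM per kb in KKO and 64.5 ± 1.71 CPM per kb in WT at 48 h (SD, n = 3). Tgfb3 had the lowest level at 24 h, at 0.0663 ± 0.0388 CPM per kb in KKO and 0.0398 ± 0.00724 in WT, close to Entpd1 at 0.0728 ± 0.0126 and 0.0620 ± 0.0204. At 48 h it stood second in KKO, at 18.0 ± 7.79 CPM per kb, beside Ebi3 at 16.5 ± 2.06, from which its spread did not part it. In WT at 48 h it was the third, at 4.02 ± 1.57 CPM per kb, after Ebi3 at 10.6 ± 1.24 and beside Ikzf4 at 3.66 ± 0.50 and Lrrc32 at 3.35 ± 0.52. Foxp3 stood in the third place at 24 h, at 3.09 ± 0.26 CPM per kb in KKO and 2.26 ± 0.16 in WT, and sixth at 48 h, at 0.833 ± 0.33 and 0.609 ± 0.12. At 24 h Ikzf4 and Lrrc32 were neighbours within their spread, at 2.63 ± 0.103 and 2.54 ± 0.102 CPM per kb in KKO and 1.61 ± 0.186 and 1.64 ± 0.155 in WT. Ikzf2, Nt5e, Entpd1 and Itgae averaged at most 0.687 CPM per kb in any group.

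Other genes of the regulatory T cell signature, 23 of 24 tested, were called higher in KKO in 4 cases at 24 h. Those 4, with their log2 fold changes, were the granzyme gene Gzmb (1.44), the checkpoint receptor Tigit (0.61), the chemokine receptor Ccr8 (0.59) and Swap70 (0.58). Over all tested genes 1.89% were called higher and 0.432% lower at 24 h, and 12.4% and 11.9% at 48 h. At 48 h 11 of the 23 were higher and 3 lower. They were led by the cytokine gene Il10 (3.46; 4.51 CPM in KKO against 0.416 CPM in WT), the decoy receptor Il1r2 (1.66), the transcription factor Plagl1 (-1.02) and the inhibitory receptor Ctla4 (0.87). At each time Il10 reached the filter's level in 3 KKO libraries but 1 WT library. It was thus tested through KKO, where it is high, and a higher KKO level was partly implied. Il2ra, the interleukin 2 receptor α chain, averaged 701 CPM in KKO and 583 CPM in WT at 24 h (0.26, adjusted p = 0.129). At 48 h it averaged 1829 CPM in KKO and 1135 CPM in WT (0.69, adjusted p = 6.807e-05). Ctla4 at 24 h had a log2 fold change of -0.40 (adjusted p = 0.726), and the difference between its effects, 1.28, had an adjusted p of 0.0899. The medians of this list were 0.30 at 24 h and 0.24 at 48 h. Activated conventional T cells express most of these genes.

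**Figure D4:**
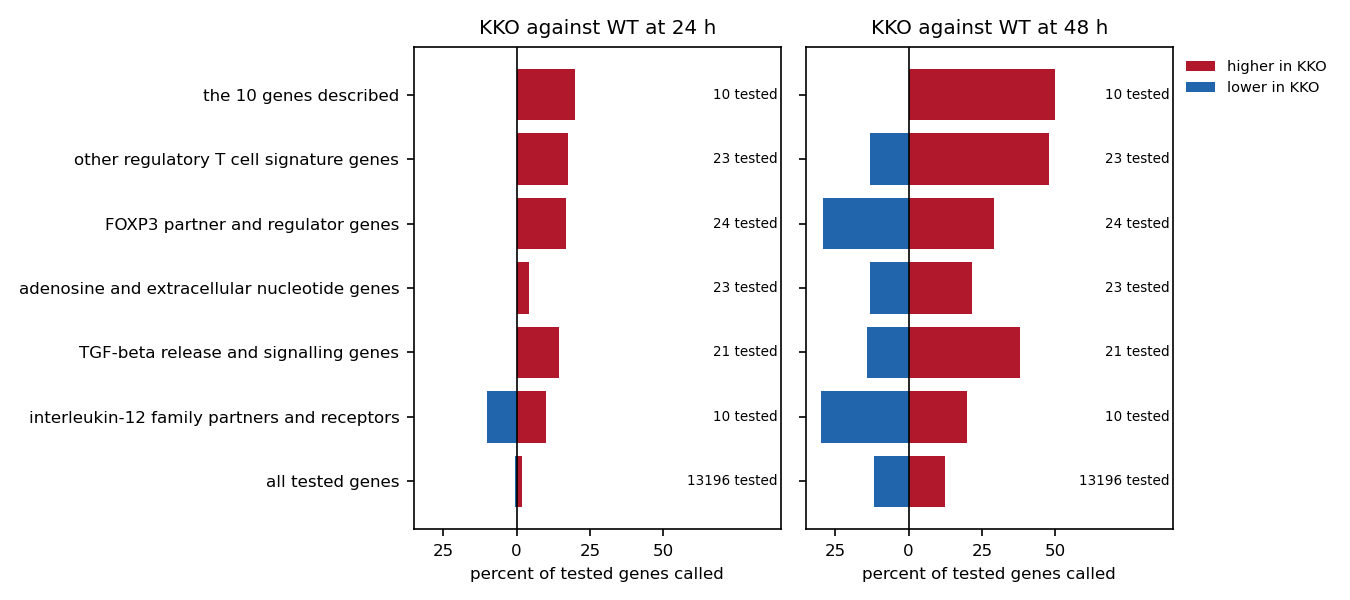
Percent of tested genes called higher (right of 0) or lower (left of 0) in KKO than in WT at 24 h and at 48 h, for the 10 genes described, 5 lists of related genes and all tested genes. All tested genes gave 1.89% higher and 0.432% lower at 24 h, and 12.4% and 11.9% at 48 h.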

How the data were processed

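The deposited table holds RSEM expected counts per gene symbol for paired-end RNA-seq; the authors used FastQC and RSEM, per the series' design text. That text names a human reference, whereas mm10 is given per the submitters' processing notes, and the symbols are those of mouse genes; strandedness is not given in the sources used here. Another 6 columns of the table match no sample and were not used. Between 10.83% and 12.69% of values were not whole, and all were rounded. Symbols were kept as filed, 27 of them as calendar dates.

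Genes that reached the filter's level in at least 3 libraries, of whatever group, were kept, and 13196 of 32699 remained. The filter was edgeR's filterByExpr with a minimum of 10 counts, here 0.434 CPM, and 3 is the number of libraries per group. Libraries were scaled by TMM, and edgeR 4.0.16 in R 4.3.3 fitted 1 mean per group over all 12 libraries (quasi-likelihood test, 8 residual degrees of freedom), with Benjamini-Hochberg adjustment over all tested genes for each of 5 comparisons and a threshold of 0.05. Intervals are 95%. DESeq2 1.42.0 and limma 3.58.1 (voom) were alternatives, beside other scalings and filters, fits without single libraries and a replicate block. The scripts were tested on simulated data. Named list genes are up to 4 called genes per list and genotype comparison with the largest change, plus preset partners, except for a gene that is not reported here; the genes most like Foxp3 and Entpd1 needed a mean of at least 2 CPM. The members and lists were chosen with earlier results of these data known. Replicate numbers were checked for pairing, with a correlation over 0.1 taken as paired. Deviations of WT libraries with the same number correlated across times at 0.126, 0.103 and 0.343, but WT replicate 2 correlated more with another number (0.151). Those of KKO correlated at 0.0287, 0.0852 and 0.0408, and KKO numbers 1 and 3 differ in sex-linked RNA between times. Libraries of different genotype and number at 24 h reached 0.373, so that cut-off cannot identify pairs. The 0.343 in WT came from replicate 3, with Y-linked RNA only at both times. Pairing in WT is therefore not established by these values, and the labels do not state it.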

Additional observations from a re-analysis of the deposited data

How the results depend on the processing

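Over the 10 genes, 5 comparisons and the alternatives that gave a value, 1002 of 1080 log2 fold changes kept their direction and side of the threshold, 38 lost a call, 13 gained one and 27 changed sign; the causes were not tested. The count of the 10 genes called in KKO against WT at 24 h, 2, became 4 with DESeq2, 5 with only the libraries compared and 1 without both KKO libraries of mixed sex, and ranged from 2 to 4 when single libraries were left out. The count at 48 h, 5, became 3 without both libraries of mixed sex and ranged from 3 to 7 when single libraries were left out. It was 3 without WT replicate 2 or KKO replicate 3 at 48 h. The count for the difference between those effects, 0, ranged from 0 to 1, the 1 being Entpd1. Over all tested genes, the counts of 307, 3209 and 552 for these 3 comparisons became 488, 3342 and 1120 with DESeq2, 525 and 1509 for the first pair with only the libraries compared, and 104, 1394 and 45 without both libraries of mixed sex. Leaving out single libraries gave 130 to 501, 1431 to 5129 and 157 to 3028. The difference count was 1417 with the share of Y-linked RNA as a covariate, which was added after the data were seen. With a replicate block the difference count was 931, and 2, 5 and 0 of the 10 genes were called in the same 3 comparisons; the block ended both time calls of Ikzf2, the only calls of the 10 genes it changed, and made the Foxp3 difference -0.0126. Between times the block joined libraries of the same genotype and number, in KKO with numbers 1 and 3 whose sex readings differ between times. In KKO against WT it joined KKO and WT libraries of the same number, which the labels do not link. Deviations of the libraries numbered 1 correlated there at -0.317 at 24 h and -0.249 at 48 h. The counts of 2 and 5 are therefore no check of a known pairing. None of the values whose sign changed had been called. The Foxp3 difference was -0.0217 with limma-voom and -0.000155 with no low-count filter. The 48 h effect of Nt5e was -0.0561 with limma-voom, -0.00534 with no low-count filter, -0.243 without both libraries of mixed sex and -0.0320 with the covariate. The 24 h effect of Tgfb1 was -0.0148 without both libraries of mixed sex and -0.00513 with the covariate, and that of Entpd1 was -0.0379 with the covariate. When single libraries were left out, the 24 h effects ranged from -0.00933 to 0.439 for Entpd1 and from -0.0156 to 0.0172 for Tgfb1, and the 48 h effect of Nt5e from -0.243 to 0.311. The differences ranged from -0.276 to 0.274 for Foxp3, -0.179 to 0.219 for Ikzf2, -0.174 to 0.00920 for Ikzf4 and -0.293 to 0.112 for Lrrc32. The change with time in WT ranged from -0.0259 to 0.0611 for Nt5e and from -0.0768 to 0.274 for Itgae. A filter of 1 CPM in 6 libraries left Entpd1 and Itgae untested. Low counts limit Entpd1 at 24 h, Tgfb3 at 24 h and Itgae at both times.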

Other observations

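Factors that bind FOXP3 or regulate its gene were called in both directions in KKO. All 24 listed genes were tested, and at 24 h 4 were higher: Gata3, the T helper 2 factor (log2 fold change 0.91; 31.3 CPM in KKO against 16.7 CPM in WT), the chromatin organiser Satb1 (0.60), the Ikaros family factor Ikzf3 (0.53) and the interleukin 2 signal carrier Stat5a (0.35). Over all tested genes 1.89% were called higher and 0.432% lower at 24 h, and 12.4% and 11.9% at 48 h. At 48 h 7 of the 24 were higher and 7 lower, with a median log2 fold change of -0.04. Lower in KKO were the orphan nuclear receptor genes Nr4a3 (-1.20; KKO 277 CPM, WT 636 CPM) and Nr4a1 (-0.84; KKO 249 CPM, WT 447 CPM), which antigen receptor signals induce, and Rel, an NF-κB subunit (-0.85; 40.8 CPM in KKO against 73.5 CPM in WT). Ikzf3 was higher (0.79). The KKO effects on Nr4a1 and Nr4a3 differed between times, by -0.71 (adjusted p = 0.00301) and -1.19 (adjusted p = 0.0169) in edgeR's quasi-likelihood test.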
